A study of Homo sapiens with 13 samples.

Results

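Transcript levels of 34 genes of sugar metabolism and oxygen response were followed through the blood-directed differentiation of human embryonic stem cells. The genes were matched by symbol from a fixed list: 24 belong to glycolysis and its entry, exit and control points, and 10 are hypoxia targets that are not glycolysis enzymes. They were matched among 30844 named genes on the array and were covered by 56 probes, with pyruvate kinase listed under its older symbol PKM2 and called PKM here. Of the 34 genes, 33 were detected on at least 1 day and entered the fit over days, and 31 were detected in at least 1 sorted fraction. CA9, a carbonic anhydrase that is a standard marker of hypoxia, was not above background on any of the 13 arrays.

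Cells burn glucose through a chain of enzymes that ends in pyruvate, which is either oxidised in mitochondria or reduced to lactate and exported. In low oxygen the hypoxia-inducible factor, HIF, is no longer hydroxylated by the prolyl hydroxylases EGLN1 to EGLN3, escapes degradation by the VHL ubiquitin ligase, and binds the core motif ACGTG or GCGTG near its target genes. Many glycolysis genes are HIF targets, but their transcription also answers to growth signals and to the high glycolytic demand of pluripotent cells, whereas targets such as BNIP3, ANKRD37 and EGLN1 serve other ends.

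All cells were the RUNX1C GFP/w reporter line, derived from HES3 human embryonic stem cells, so the whole series rests on a single line. Undifferentiated cells of day 0 came from a line kept on mouse feeders in KOSR medium with FGF2, and cells of days 1 to 8 were spin embryoid bodies, which are aggregates formed by centrifugation, in APEL medium. Activin was given with BMP4, VEGF and SCF until day 4, when fresh APEL was supplied with BMP4, VEGF, SCF, FGF2 and IGF2. The change of culture form after day 0 and differentiation itself cannot be told apart. Each day was read on 1 unsorted array, and 4 populations sorted on day 7 by the surface proteins CD34 and CD41 were read on 1 array each, on a second chip. They are called here the negative fraction (CD34- CD41-), the CD34lo fraction (CD34lo CD41-), the CD34hi fraction (CD34hi CD41-) and the CD41lo fraction (CD34lo CD41lo). The sources used here state no oxygen tension.

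No group had a replicate. Values are background-corrected, quantile-normalized log2 intensities, called levels here, and a level of 1 probe says nothing about that of another. Changes over days come from a smooth curve through the 9 arrays, fitted with limma for all 17657 detected features, so the standard error (SE) and the p-value measure scatter about that curve and not variation between cultures. A gene is said to have risen or fallen where the Benjamini-Hochberg adjusted p was below 0.05 and the fitted change was at least 1 on the log2 scale. Between 15130 and 17830 probes were detected per array, the lowest detected level was 5.29 to 5.73, and the scale ended at 14.02. Markers were set beside the labels: POU5F1, a pluripotency factor, went from 11.71 on day 0 to 5.50 on day 8, and CD34 levels were 8.52, 10.58, 12.88 and 10.06 in the negative, CD34lo, CD34hi and CD41lo fractions.

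Most of the hypoxia targets were called as risen or fallen between day 0 and day 8. Most of the glycolysis genes, like most of all features, were not called. Of 9 hypoxia targets tested, 6 rose (P4HA1, NDRG1, P4HA2, BNIP3, EGLN1 and BNIP3L) and 2 fell (ADM and EGLN3). Of 24 glycolysis genes, each read from its brightest probe, 3 rose (SLC16A3, PFKFB4 and ALDOC) and none fell. Of these 3 risers only ALDOC lies among the 17 enzymes from hexokinase to lactate dehydrogenase. The number of glycolysis genes that fell was above 0 under 3 of 19 alternatives, and at most 2. Over all features 11.8% rose and 10.2% fell by the same rule. The median fitted change was 2.12 for the hypoxia targets, 0.15 for the glycolysis genes, 0.08 for the 17 enzymes and -0.04 for all features. The fit has little anchor at its ends: without the day 8 array none of the 33 genes was called, and without the day 0 array the calls of PFKFB4, ALDOC, ADM and EGLN3 were lost. Leaving out each day in turn gave a median change of 1.65 to 3.30 for the hypoxia targets and 0.06 to 0.43 for the glycolysis genes, with the lowest values without day 8 and the highest without day 0.

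**Figure D1:**
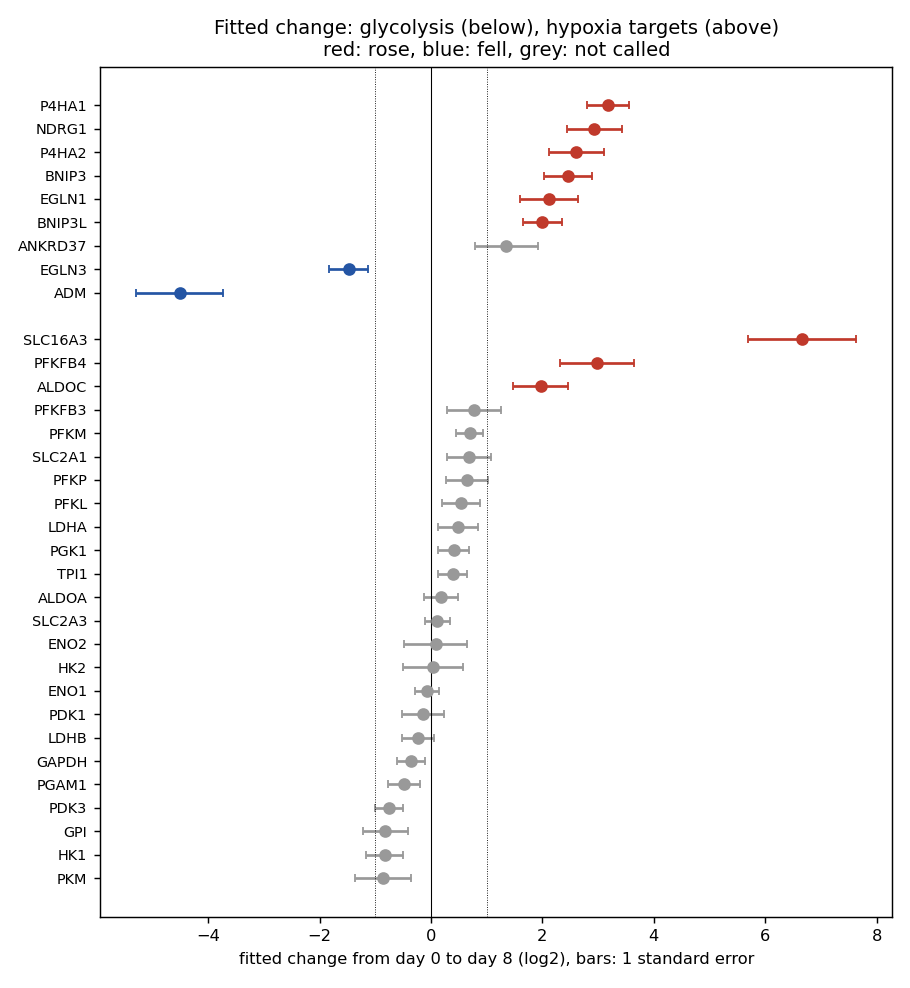
Fitted change from day 0 to day 8 on the log2 scale for 33 genes, with bars of 1 SE and dotted lines at a change of 1 either way. Red points rose, blue points fell and grey points were not called; 6 hypoxia targets and 3 glycolysis genes are red, and ADM and EGLN3 are blue.

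The promoters of some of the genes that moved together, and of some that did not, are shown because HIF binds a short motif there. The windows are the 250 bases before each RefSeq transcription start on GRCh38.p14, and 31 of the 34 genes had 57 such windows. The motif ACGTG was searched on both strands, so that it reads CACGT on the other strand and the palindrome CACGTG counts as 2 overlapping matches. Capitals mark the matches, each sequence runs 5′ to 3′ on the strand of its gene, and only the stretch around the matches is printed, which for LDHA holds 2 of the 5 matches in its window. Only genes with a match were chosen for printing, each at its window with most matches. The stretches therefore do not show how often genes that moved carry the motif. P4HA2, ADM and PFKFB4, also at least 2-fold higher on day 3 than on day 2, had no ACGTG, and NDRG1 had no window. The first 4 are hypoxia targets whose level stepped up on day 3 and the next 4 are glycolysis genes, of which SLC16A3 rose and PGK1, LDHA and GAPDH were not called.
EGLN1 (chr1:231422288-231422335, minus strand): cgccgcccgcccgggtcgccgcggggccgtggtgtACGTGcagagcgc
BNIP3 (chr10:131982017-131982092, minus strand): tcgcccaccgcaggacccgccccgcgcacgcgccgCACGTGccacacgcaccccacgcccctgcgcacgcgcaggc
ANKRD37 (chr4:185396644-185396737, plus strand): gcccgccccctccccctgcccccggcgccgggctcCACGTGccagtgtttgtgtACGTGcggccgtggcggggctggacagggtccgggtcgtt
P4HA1 (chr10:73096913-73096987, minus strand): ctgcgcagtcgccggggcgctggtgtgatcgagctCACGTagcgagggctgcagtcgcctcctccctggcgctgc
SLC16A3 (chr17:82228939-82229026, plus strand): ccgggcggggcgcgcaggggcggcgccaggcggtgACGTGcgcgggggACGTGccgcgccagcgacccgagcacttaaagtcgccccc
PGK1 (chrX:78104011-78104104, plus strand): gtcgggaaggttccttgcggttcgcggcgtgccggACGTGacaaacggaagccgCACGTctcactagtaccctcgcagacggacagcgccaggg
LDHA (chr11:18394343-18394418, plus strand): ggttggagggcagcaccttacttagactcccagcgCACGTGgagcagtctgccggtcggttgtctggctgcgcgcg
GAPDH (chr12:6535148-6535223, plus strand): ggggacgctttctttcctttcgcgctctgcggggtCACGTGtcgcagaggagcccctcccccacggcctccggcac

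ACGTG lay in 18 of 49 glycolysis windows (36.7%), in 5 of 8 windows of hypoxia targets (62.5%) and in 18.5% of all 35116 windows. Counted by gene, 15 of 23 glycolysis genes (65.2%) and 5 of 8 hypoxia targets (62.5%) had at least 1 window with a match, against 21.7% of all genes, and genes with more starts had more chances. The related core GCGTG, also searched on both strands, lay in 30.6% of glycolysis windows, 25% of windows of hypoxia targets and 32.2% of all windows. The median G and C content was 68.4% in glycolysis windows, 69% in windows of hypoxia targets and 58% in all windows, and its part in the motif counts was not tested. Of the genes with a window that were tested from day 0 to day 8, ACGTG was found in 5 of 7 that rose, in 0 of 2 that fell and in 14 of 21 that were not called. The counts for GCGTG were 4 of 7, 1 of 2 and 10 of 21. PFKFB4 and ADM had GCGTG and no ACGTG, and P4HA2 and EGLN3 had neither. SLC16A3 has 5 annotated starts, and ACGTG lies only before the second of them.

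Among the transporters, the lactate exporter SLC16A3 had the largest change of all 34 genes. Its levels on days 0 to 8 were 7.07, 5.87, 9.07, 11.29, 11.47, 12.28, 12.68, 13.01 and 12.83. The level dipped on day 1, was 9.23-fold higher on day 2 than on day 1, and was higher on each day up to day 7. Its fitted change from day 0 to day 8 was 6.67 ± 0.97 (SE, 9 arrays; adjusted p = 0.00151), against a measured difference between those arrays of 5.76. The glucose importer SLC2A1 ran through a trough, at 11.78, 10.52, 10.41, 11.06, 11.07, 11.46, 11.57, 11.96 and 12.24. Days 0 and 8 were its ends of high level and days 1 and 2 its floor, so that its course differed from a flat line (adjusted p = 0.0154) while no interval was called. SLC2A3, the importer of high glucose affinity, stayed between 13.34 and 13.79, near the top of the scale.

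From day 0 to day 8 ALDOC was the only gene called among the 17 enzymes of the trunk of the pathway. Over the 17 enzymes the span between the highest and lowest day had a median of 1.07, with 0.30 for ENO1 at one end and 2.30 for PKM at the other, and 6 spans were under 1. Of these 17, 3 had a course that differed from a flat line (PFKM, ALDOC and PKM), as did 7 of the 24 glycolysis genes, against 9 of the 9 tested hypoxia targets and 38.8% of all features. GAPDH, the dehydrogenase often used as a reference transcript, had levels of 13.38, 13.26, 13.45, 13.10, 13.25, 12.90, 13.02, 13.12 and 12.93. Its fitted change of -0.36 ± 0.25 was not called (adjusted p = 0.332), and its other probes correlated with the kept one at only 0.138 and 0.573 over 9 days. ENO1, the ubiquitous enolase, lay between 13.41 and 13.71 throughout. LDHA, which makes lactate, was lowest on day 1 and highest on day 3, at 12.90, 12.34, 13.00, 13.53, 13.44, 13.26, 13.28, 13.21 and 13.12. PGK1, the first enzyme of the chain to yield ATP, went from 11.57, 11.74 and 11.65 on days 0 to 2 to 12.29, 12.41, 12.06, 12.13, 12.08 and 11.93 on days 3 to 8. On the kept probes both were higher on every day from day 3 than on any earlier day, yet neither was called in an interval. A second PGK1 probe, with a correlation of 0.451, was at 9.96, 10.00 and 10.12 on days 0 to 2. It was at 10.63 and 10.49 on days 3 and 4 and between 9.72 and 9.90 on days 5 to 8.

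At the head of the chain, the hexokinases trap glucose as its phosphate. HK1 was at 12.46 on day 0 and 11.56 on day 8, with a fitted change of -0.83 ± 0.33 (adjusted p = 0.0988), and HK2 peaked at 9.39 on day 4 and returned to 8.32 on day 8. A second HK2 probe, with a correlation of only 0.373, was highest on day 3 at 8.36 and was at 7.59 on day 4. The isomerase GPI had a fitted change of -0.82 ± 0.40 (adjusted p = 0.17). Phosphofructokinase, the committed step, has 3 subunit genes, and all of their fitted changes lay between 0.54 and 0.69 without a call. PFKM, the muscle-type subunit, had levels of 9.27, 9.45, 9.08, 9.36, 9.62, 10.03, 10.19, 10.03 and 10.10 and differed from a flat line (adjusted p = 0.0074). TPI1 and PGAM1, further down the chain, had fitted changes of 0.39 ± 0.26 and -0.49 ± 0.28, and neither was called.

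ALDOC, the aldolase best known from brain, was the exception among the 17 enzymes. Its levels were 9.78, 9.84, 9.66, 11.21, 10.66, 10.35, 10.84, 11.19 and 11.54. The value of day 3 stood 2.92-fold above that of day 2, the level was lower on days 4 and 5, and the highest value was that of day 8. The fitted change was 1.97 ± 0.49 (adjusted p = 0.0181), while that of ALDOA, the widely expressed aldolase, was 0.18 ± 0.30 (adjusted p = 0.714).

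On the probes fitted, PKM, the pyruvate kinase that closes the chain, was the only glycolysis gene to fall in any interval. Its levels were 9.94, 9.59, 10.20, 10.74, 11.16, 9.76, 9.51, 9.06 and 8.86, with a peak on day 4 and a level 2.65-fold lower on day 5. From day 4 to day 8 the fitted change was -1.73 ± 0.44 (adjusted p = 0.0413). Both other PKM probes followed the kept one, with correlations of 0.988 and 0.946 over the 9 days. From day 0 to day 8 the measured difference was -1.08 on the kept probe and -1.50 and -1.57 on the others, which were not fitted by themselves. The call from day 4 to day 8 was close to the threshold and was lost under 9 of 19 alternatives. Among them were the submitters' own normalized values and the removal of any single day from 3 to 8.

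Among the control enzymes only PFKFB4 was called. PFKFB4, a bifunctional enzyme that sets the level of the sugar bisphosphate activating phosphofructokinase, had levels of 7.61, 8.28, 7.95, 10.59, 10.65, 10.71, 10.49, 10.68 and 10.49. Days 0 to 2 and days 3 to 8 formed separate low and high plateaus with no overlap, 6.23-fold apart at the step. Its change from day 0 to day 8 was 2.98 ± 0.66 (adjusted p = 0.0108). PFKFB3, its paralogue, had levels of 9.61, 8.77, 9.44, 10.27, 10.80, 10.43, 10.36, 10.47 and 10.01 and was not called (0.77 ± 0.48, adjusted p = 0.275). PDK3, a kinase that shuts pyruvate dehydrogenase, had a fitted change of -0.76 ± 0.25 (adjusted p = 0.0533), and PDK1, its HIF-responsive paralogue, was above background on day 4 alone.

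Among the hypoxia targets, those of the oxygen sensor family went opposite ways. EGLN1, the main HIF prolyl hydroxylase, was not above background on days 0 to 2 and had levels of 7.08, 6.99, 7.11, 6.94, 6.84 and 6.91 on days 3 to 8. Measured against the detection floor of day 2, its level on day 3 was at least 2.92-fold higher. The fitted change of 2.12 ± 0.53 (adjusted p = 0.0175) rests on undetected values at its start. EGLN3 had levels of 6.70, 6.46, 7.38, 6.84 and 6.27 on days 0 to 4 and was not above background from day 5. It fell by 1.48 ± 0.35 over the course (adjusted p = 0.0143), a call that was lost without background correction and without the day 0 array, where the change was -0.50.

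BNIP3 and BNIP3L are mitochondrial outer membrane proteins that mark mitochondria for removal. BNIP3 had levels of 9.79, 9.96, 10.77, 12.25, 11.72, 11.98, 11.96, 11.92 and 12.03, with its highest value on day 3 and a plateau after it. BNIP3L had levels of 8.05, 8.25, 8.29, 9.07, 10.16, 9.89, 10.22, 10.13 and 10.04 and reached its plateau a day later, on day 4. Their fitted changes were 2.46 ± 0.43 (adjusted p = 0.00365) and 1.99 ± 0.35 (adjusted p = 0.00365). A second BNIP3L probe correlated with the first at 0.940 over days.

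P4HA1 and P4HA2 encode catalytic subunits of the collagen prolyl hydroxylase, which also consumes oxygen. P4HA1 had levels of 8.74, 8.34, 8.79, 9.84, 10.49, 10.69, 11.12, 11.34 and 11.76 and was the only gene of the 33 called as risen from day 4 to day 8 (1.44 ± 0.32 from day 4 to day 8, adjusted p = 0.0253). That call was lost under 5 of 19 alternatives, among them the removal of day 5, 6, 7 or 8. P4HA2 had levels of 7.67, 7.28, 7.07, 8.44, 9.23, 9.16, 9.34, 9.81 and 10.16, and its other probes correlated with the kept one at 0.987 and 0.966. Over the whole course P4HA1 changed by 3.18 ± 0.38 (adjusted p = 0.00056) and P4HA2 by 2.60 ± 0.50 (adjusted p = 0.00529). NDRG1, a stress-induced protein, had levels of 7.11, 6.37, 6.39, 7.82, 8.40, 9.03, 8.93, 9.47 and 9.90, with a change of 2.93 ± 0.50 (adjusted p = 0.00328). The summed linear level of the mesenchyme markers COL3A1, DCN, LUM and COL1A1 was 746.2 on day 0, 5500 on day 4 and 30700 on day 8. COL3A1 and DCN were not above background on days 0 to 3 nor LUM on days 0 to 2, and COL1A1 was at 9.37, 7.77, 5.94, 6.21 and 8.87 on days 0 to 4 and at 11.94 on day 8. The summed level of 5 endoderm markers (AFP, TTR, APOA1, APOA2 and SERPINA1) was 1703 on day 0, 2180 on day 4 and 59450 on day 8. What part these cells had in the P4HA1, P4HA2 and NDRG1 changes was not tested, and in unsorted samples fewer cells of a type and less RNA per cell cannot be told apart.

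ADM, the precursor of the vasodilator peptide adrenomedullin, fell over the course, as did EGLN3. The levels of ADM were 12.30, 10.53, 8.24, 9.70, 9.78, 9.70, 8.70, 8.12 and 7.88. Day 0 was far above every later day, day 2 was a trough, days 3 to 5 formed a shoulder and the level was lower again on days 6 to 8. The fitted change was -4.51 ± 0.78 (adjusted p = 0.00351). ANKRD37, an ankyrin-repeat protein, was not above background on days 1 and 2 and had levels of 6.81, 6.93, 7.40, 6.78, 6.82 and 6.79 on days 3 to 8. Its course differed from a flat line (adjusted p = 0.0217) while its change from day 0 to day 8 was not called (1.35 ± 0.56, adjusted p = 0.109).

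**Figure D2:**
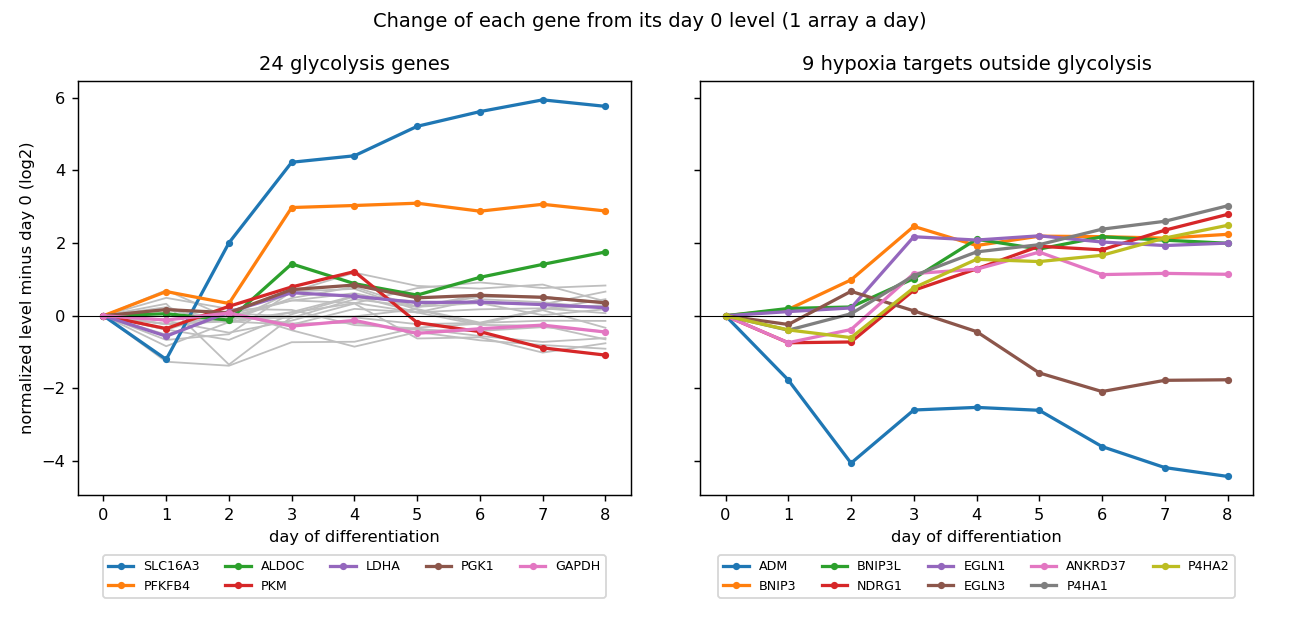
Level of each gene minus its own level on day 0, on the log2 scale, against day, with 1 array a day; 24 glycolysis genes are on the left and 9 hypoxia targets on the right, and grey lines are glycolysis genes without a name in the key. SLC16A3 and PFKFB4 leave the band in which most glycolysis genes stay, 7 hypoxia targets, ADM among them, step up at least 2-fold on day 3, and ADM and EGLN3 end below 0.

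The intervals before and after the medium change differed in how many genes were called. From day 0 to day 4, 4 hypoxia targets rose (BNIP3, EGLN1, P4HA1 and BNIP3L), 1 fell (ADM) and 2 glycolysis genes rose (SLC16A3 and PFKFB4), where 6.28% of all features rose and 5.9% fell. The ADM call was lost under 4 of 19 alternatives, among them the submitters' normalized values and the removal of day 0 (-1.47, adjusted p = 0.577), and those of PFKFB4 and BNIP3L were lost without day 0. Median changes were 1.54 for the hypoxia targets, 0.30 for the glycolysis genes and -0.00 for all features. Without day 0 the medians of the lists were 2.85 and 0.75, and the fitted changes of BNIP3, EGLN1, P4HA1 and SLC16A3 were 3.59, 3.45, 2.97 and 9.47, each over 1.5 times the value with all days. From day 4 to day 8 only P4HA1 rose and only PKM fell, where 4.95% of all features rose and 2.63% fell. Median changes in that interval were 0.09 and -0.10 for the hypoxia targets and the glycolysis genes, and both medians changed sign under some alternatives. For the glycolysis genes these include a straight line, which gives both intervals the same change.

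The step from day 2 to day 3 held most of the early movement. Between those arrays 7 of 9 hypoxia targets and 5 of 24 glycolysis genes were at least 2-fold higher and none was 2-fold lower, where 2.46% of all features were 2-fold higher. The 7 targets were EGLN1, BNIP3, ADM, NDRG1, P4HA2, ANKRD37 and P4HA1, with differences of 1.05 to 1.55 on the log2 scale, where those of EGLN1 (1.55) and ANKRD37 (1.28) are lower bounds. The 5 glycolysis genes were PFKFB4 (2.64), SLC16A3 (2.22), ALDOC (1.55), ENO2 (1.31) and HK2 (1.17). A second HK2 probe, at 7.55 on day 2 and 8.36 on day 3, stayed under 2-fold. ENO2, the neuron-type enolase, was 3.19-fold lower on day 2 than on day 1, and its step brought it back near its day 0 level. Median differences at this step were 1.37 for the hypoxia targets, 0.49 for the glycolysis genes and -0.10 for all features. The last value equals the change of the detection floor, from 5.53 to 5.44, and so stands for undetected features. The step rests on 1 array on each side. The summed level of 6 streak and mesoderm markers was 27590 on day 2 and 32790 on day 3, and that of 4 pluripotency markers was 3415 and 1581.

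Other steps held few of these genes. At least 2-fold differences were seen for SLC2A1, SLC16A3 and ADM from day 0 to 1 (lower), for ENO2, ADM (lower) and SLC16A3 (higher) from day 1 to 2, for BNIP3L (higher) from day 3 to 4 and for PKM (lower) from day 4 to 5. No gene of the 33 passed 2-fold at the later steps. The share of all features past 2-fold in either direction was 3.04% from day 0 to 1, 4.02% from day 1 to 2, 5.17% from day 3 to 4, 5.71% from day 4 to 5, 1.53% from day 5 to 6, 0.606% from day 6 to 7 and 0.651% from day 7 to 8. The median of all features shifted by 0.19 from day 0 to 1 and by -0.18 from day 1 to 2. It includes undetected values raised to the detection floor, which was 5.37, 5.73 and 5.53 on days 0, 1 and 2. It therefore does not measure an offset of genes detected on both days.

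**Figure D3:**
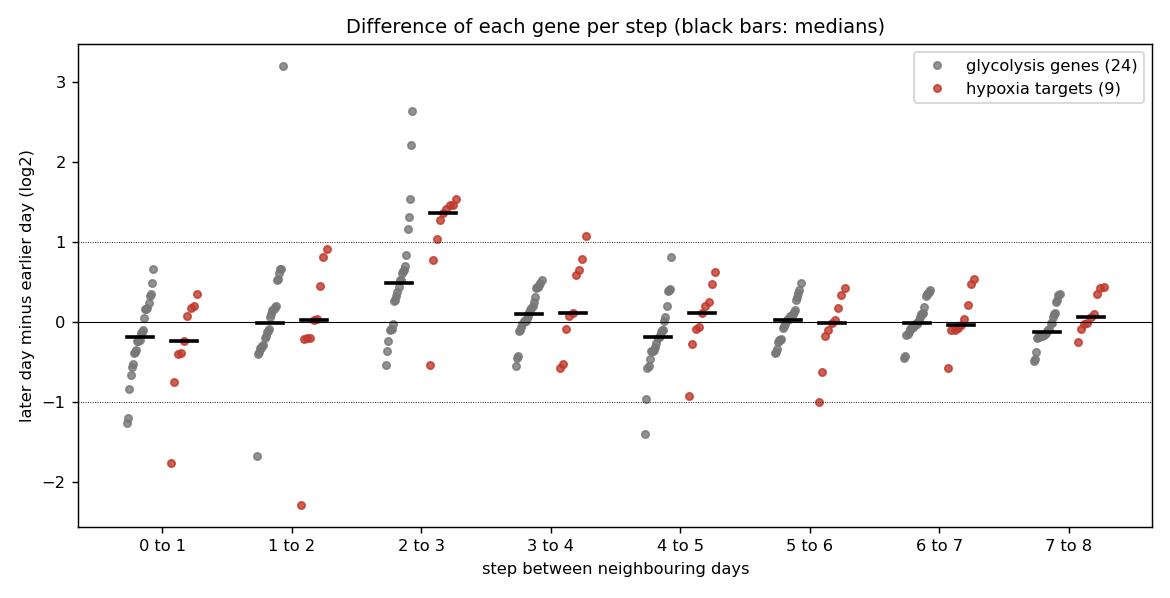
Difference between neighbouring days on the log2 scale for 24 glycolysis genes (grey) and 9 hypoxia targets (red), with black bars at the medians and dotted lines at 2-fold. At the step from day 2 to day 3 the red median is 1.37 and the grey median 0.49.

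With the course divided at day 3, a division made after the values were seen, 7 of 9 hypoxia targets and 9 of 24 glycolysis genes had every level of days 3 to 8 above every level of days 0 to 2. These 7 targets were BNIP3, BNIP3L, NDRG1, EGLN1, ANKRD37, P4HA1 and P4HA2, and not ADM or EGLN3. All features showed that pattern in 11.8% of cases. The 9 glycolysis genes were PFKL, PFKP, PFKFB3, PFKFB4, ALDOC, TPI1, PGK1, LDHA and SLC16A3, so that the kept probes of some enzymes without a call had small shifts in the same direction. The opposite pattern held for the kept probes of HK1 and GAPDH and for 12% of all features. Among other probes detected on at least 12 arrays, those of PGK1, PFKFB3, HK1 and GAPDH did not show the pattern of their gene. Those of TPI1 and LDHA did. As a description over the 9 days, which share arrays, the median correlation was 0.845 over 36 pairs of hypoxia targets, of which 14 pairs that join ADM or EGLN3 to another target were below 0, 0.238 over 276 pairs of glycolysis genes and 0.396 over 216 pairs across the lists. SLC16A3 and PFKFB4 were the glycolysis genes most like BNIP3, with correlations of 0.950 and 0.945, and HK1 and GAPDH the least like it, with -0.669 and -0.751.

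Isozyme balance was tested as the change of the log2 ratio of 2 paralogues from day 0 to day 8, and 3 of 12 pairs were called. The ratio of PFKFB4 to PFKFB3 changed by 2.21 ± 0.59 (adjusted p = 0.0231), that of ALDOC to ALDOA by 1.79 ± 0.47 (adjusted p = 0.0217) and that of EGLN3 to EGLN1 by -3.60 ± 0.59 (adjusted p = 0.00256). In each of the 3 the shift was toward the member that had risen. EGLN1 was not above background on days 0 to 2 nor EGLN3 on days 5 to 8. The size and SE of their ratio change therefore rest on undetected values. The ratio of LDHB, the subunit that favours lactate oxidation, to LDHA was -0.31, -0.27, -0.39, -1.16, -1.04, -1.06, -1.11, -0.93 and -0.96 on days 0 to 8. It stood lower on every day from day 3 than before, but its change of -0.72 ± 0.29 missed the threshold (adjusted p = 0.0955). The ratio of HK2 to HK1 changed by 0.87 ± 0.68 and that of BNIP3L to BNIP3 by -0.47 ± 0.50, and neither was called, with adjusted p of 0.391 and 0.538. Without the day 8 array no pair was called, and without day 0 only the ALDOC pair was, the ratio of PFKFB4 to PFKFB3 then changing by 1.40.

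Other genes of these pathways gave the setting. In the HIF machinery 1 of 12 genes rose and 1 fell from day 0 to day 8, where 11.8% of all features rose and 10.2% fell. EPAS1, an alpha subunit of HIF abundant in endothelium, had levels of 6.12, 8.27, 9.28, 9.26 and 9.49 on days 4 to 8 and changed by 4.52 ± 0.42 (adjusted p = 0.000185), and was not above background on days 0 to 3. ARNT2, a partner subunit, changed by -1.06 ± 0.30 (adjusted p = 0.03) and was not above background from day 3, so the size of its change is not measured. HIF1A stayed between 8.93 and 9.40, with a change of -0.08 ± 0.24 (adjusted p = 0.851), and its transcript does not show the protein, whose amount is set by degradation. Of 25 further hypoxia targets tested 11 rose and 2 fell, against the same shares of all features, with a median change of 1.02 beside -0.04 for all features. The largest rises were those of ANGPTL4, an inhibitor of lipoprotein lipase (4.24 ± 0.41, adjusted p = 0.000224), CA12, a carbonic anhydrase (3.58 ± 1.05, adjusted p = 0.0335), and LOX, a collagen cross-linking oxidase (3.13 ± 0.90, adjusted p = 0.0312). EPAS1 on days 0 to 3, ANGPTL4 on days 0 to 2 and CA12 on day 0 were not above background, so the sizes of their changes rest on undetected values. CA12 peaked on day 2 at 10.17, was lower on day 3 at 7.86 and on day 5 at 6.01, and was at 8.35 on day 8. KISS1R, the kisspeptin receptor, was among those that fell and changed by -1.39 ± 0.31 (adjusted p = 0.0116). It was not above background on days 2 and 4 to 7, so the size of its change also rests on undetected values.

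Of 15 other glycolysis, branch and entry genes tested 3 rose and 2 fell, where 11.8% of all features rose and 10.2% fell. PGM1, which links glycogen to glycolysis, changed by 1.78 ± 0.39 (adjusted p = 0.0102) and HKDC1, a hexokinase relative, by 1.55 ± 0.25 (adjusted p = 0.00242), although HKDC1 was above background on days 7 and 8 alone. TIGAR, a sugar bisphosphatase, changed by -1.16 ± 0.26 (adjusted p = 0.0116) and TKT, the transketolase of the pentose phosphate pathway, by -1.07 ± 0.26 (adjusted p = 0.0166). Of 15 genes of mitochondrial pyruvate use, against the same shares, 1 rose and none fell, the riser being MPC2, a subunit of the mitochondrial pyruvate carrier (1.57 ± 0.34, adjusted p = 0.00997).

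The sorted fractions of day 7 had 1 array each, so their differences are descriptions without a test. Of 8 hypoxia targets 5 were at least 2-fold lower in the CD41lo fraction than in the negative fraction (ADM, NDRG1, P4HA2, P4HA1 and BNIP3) and none was 2-fold higher, although EGLN1 stood 0.45 higher on the log2 scale, with a median difference of -1.44, where 11% of all features were 2-fold lower and 8.23% 2-fold higher. Of 23 glycolysis genes 2 were lower (SLC2A1 and ALDOC) and 2 higher (HK1 and ENO2), with a median difference of 0.11 against 0.14 for all features. The median of all features includes undetected values raised to floors of 5.29 in the negative and 5.47 in the CD41lo fraction. ADM was at 9.98, 8.27, 7.53 and 6.44 in the negative, CD34lo, CD34hi and CD41lo fractions, a difference of 11.7-fold between the first and the last. NDRG1, in the same order of fractions, was at 8.39, 7.79, 9.13 and 6.28, highest in the CD34hi fraction. P4HA2 was at 8.70, 8.23, 8.12 and 6.68, with the CD41lo fraction alone far below the rest. BNIP3L did not share this pattern and stayed at 10.06, 10.30, 10.20 and 10.02. Against the CD34lo fraction, which has the same CD34 grade by the sample titles, the CD41lo fraction was 2-fold lower in 3 of 8 targets (ADM, P4HA2 and NDRG1) and in none of 23 glycolysis genes, where 5.68% of all features were lower and 2.69% higher. The column header of the CD41lo array gives CD34 and CD41 as positive, without a grade.

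The CD34hi fraction, in which endothelial markers were highest, had a mixed profile. Of 8 targets 3 were 2-fold lower than in the negative fraction (ADM, P4HA1 and BNIP3) and 1 was higher (EGLN1), and of 23 glycolysis genes 4 were lower (SLC2A1, PFKFB4, ALDOC and SLC16A3) and 1 higher (HK1), where 8.89% of all features were lower and 6.97% higher. EGLN1 was at 6.19, 6.44, 7.75 and 6.64 in the negative, CD34lo, CD34hi and CD41lo fractions, a 2.95-fold difference between the negative and CD34hi fractions. SLC2A1, in the same order, was at 11.20, 10.28, 8.78 and 9.57, lowest in the CD34hi fraction and 5.34-fold below the negative fraction there. PFKFB4 was at 10.21, 9.90, 8.66 and 10.34, with the CD34hi fraction alone low. HK1 was at 11.24, 12.39, 12.56 and 12.64, low in the negative fraction and alike in the other 3. The CD34lo fraction stood closest to the negative one, with HK1 the only glycolysis gene 2-fold higher and ADM the only target 2-fold lower, where 2.64% of all features were higher and 4.21% lower.

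Cell makeup differed between these fractions in the same comparisons. In the negative, CD34lo, CD34hi and CD41lo fractions the summed linear level of 5 endoderm markers was 35120, 25780, 1524 and 1660, and that of 4 mesenchyme markers was 16660, 12600, 2962 and 1617. The 6 endothelial markers summed to 1663, 6865, 23390 and 4629, and the 7 red cell markers to 8358, 16280, 1550 and 46850. In the CD34hi and CD41lo fractions SERPINA1 and DCN were not above background. The part of cell makeup in the differences of ADM, P4HA1, P4HA2, NDRG1 and SLC2A1 was not tested.

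**Figure D4:**
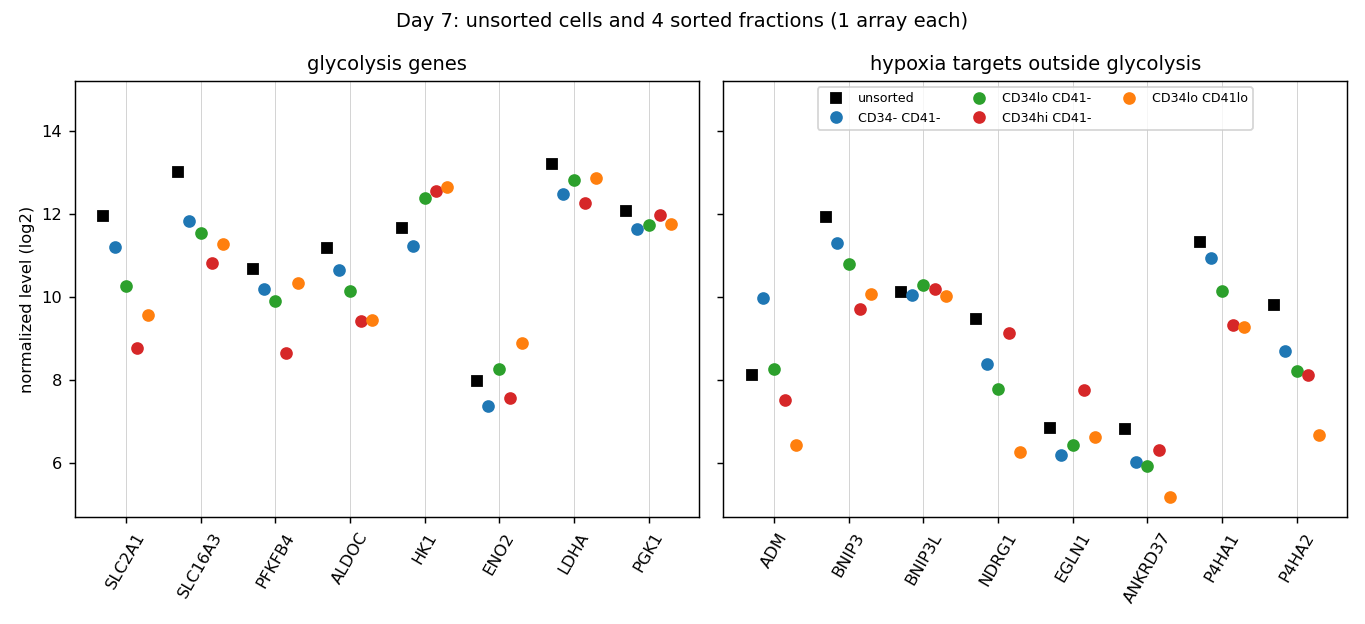
Level on the log2 scale of 8 glycolysis genes and 8 hypoxia targets in unsorted day 7 cells (black squares) and in 4 sorted fractions of day 7 (coloured circles), 1 array each. BNIP3, NDRG1, ANKRD37, P4HA1 and P4HA2 lie below the unsorted cells in all 4 fractions, and ADM is highest in the CD34- CD41- fraction.

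Sorted cells were mostly lower than unsorted cells of the same day in both lists. All 4 fractions lay below the unsorted array for 16 of 23 glycolysis genes and 5 of 8 hypoxia targets, where 19.3% of all features did. SLC16A3 was at 13.01 unsorted and at 11.83, 11.55, 10.82 and 11.28 in the negative, CD34lo, CD34hi and CD41lo fractions. BNIP3 was at 11.92 unsorted and, in the same order, at 11.30, 10.79, 9.71 and 10.07. P4HA1 was at 11.34 unsorted and at 10.93, 10.15, 9.34 and 9.29 sorted. None of the 4 fractions reached the unsorted level of these 3 genes. Counting differences of at least 2-fold below unsorted cells, the negative fraction had 1 glycolysis gene and 2 targets (2.31% of all features), the CD34lo fraction 4 and 4 (3.68%), the CD34hi fraction 6 and 3 (7.71%) and the CD41lo fraction 5 and 6 (9.9%). BNIP3L, EGLN1 and ADM were not below it in all 4, and ADM was 3.63-fold higher in the negative fraction than unsorted. Of 5 handling markers, FOS and EGR1 were higher in all 4 fractions than unsorted, and ATF3, HSPA1A and DDIT3 were lower in all 4. FOS was at 8.54 unsorted and at 11.55, 11.72, 11.46 and 11.34 in the negative, CD34lo, CD34hi and CD41lo fractions, and HSPA1A at 9.69 and 8.63, 8.88, 8.28 and 9.35. The summed linear level of FOS, EGR1, ATF3, HSPA1A and DDIT3 was 2010 unsorted and 5772, 6052, 4177 and 4985 in the fractions. Sorting, chip and experiment cannot be told apart here.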

How the data were processed

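Total RNA of 13 samples was labelled and hybridised to Illumina BeadChips, per the labels' protocols. The deposited table gives an intensity and a detection value per probe and array for 47231 probes. These intensities were not normalized, and GenomeStudio 2010.2 and lumi (no version given) are named in the submitters' processing notes without a role. The deposited detection values are fractions from 0 to 1, high for bright probes, and were read as 1 minus a detection p-value. The authors' deposited processed values are on a log2 scale and served as an alternative. The sources used here do not say how those were normalized.

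Intensities were normalized together with neqc (limma 3.58.1, R 4.3.3, offset 16). 1 probe lacking a value was dropped. Older symbols were updated through the RefSeq gene table (27035 probes current, 4649 updated, 12276 unmatched and kept as filed, 3270 without a symbol). Each gene is read from its brightest probe detected (p below 0.01) on at least 1 array of the experiment, leaving 17657 features over days, 15891 over fractions and 16449 for unsorted and sorted cells. A natural spline with 3 degrees of freedom over day was fitted with limma (5 residual and 3.99 prior degrees of freedom, median residual SD 0.247), and p-values were adjusted over all features, of which 8574 had an unadjusted trend p below 0.05. On simulated data with 17657 features, a straight change from day 0 to day 8 passed the adjusted threshold for 4% of genes changed 2-fold, 60% changed 4-fold, 92% changed 8-fold and 98% changed 16-fold. The simulation changed 50 features at each size and left the rest flat, where 2079 features rose and 1805 fell in these data. Its adjusted threshold was therefore stricter, and these shares are not the detection rates of this fit. A missing call still says little about changes near 2-fold. Single-array differences were counted at 2-fold, an undetected side being raised to its array's lowest detected level ("at least"). All 34 genes are named. Some other genes that are counted in the lists are not reported here by name. Members and lists were chosen with earlier results of these data known. Promoter windows come from RefSeq.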

Additional observations from a re-analysis of the deposited data

How the results depend on the processing

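No paired analysis was possible because the labels carry no replicate numbers and each group has 1 array. No called change reversed its direction under any alternative run, and the number of genes with a trend over days (16) stayed between 13 and 22. Leaving out each day in turn moved the genes called from day 0 to day 4 (7) to between 7 and 11, from day 4 to day 8 (2) to between 0 and 5, from day 0 to day 8 (11) to between 0 and 11, and the isozyme pairs called (3) to between 0 and 3. The 0 for day 0 to day 8 is the fit without day 8, in which the curve is extended to that day. For day 4 to day 8 the count was 0 with the submitters' normalized values, 4 without background correction, 1 without the filter on dim probes, 4 with a spline of 2 degrees of freedom, 10 with a straight line and 4 with an intensity trend in the prior. A spline of 2 degrees of freedom called 17 genes from day 0 to day 8, and 5 isozyme pairs were called with it and with a straight line. A straight line gives days 0 to 4 and days 4 to 8 the same change, so its count of 10 does not measure the later interval by itself. The cause of the other shifts was not tested. The median change from day 4 to day 8 ran from -0.20 to 0.19 for glycolysis genes and from -0.16 to 1.14 for hypoxia targets. Both upper ends are those of the straight line, which cannot separate the 2 intervals. The adjusted p of PKM from day 4 to day 8 ran from 0.0112 to 0.468, and that of P4HA1 from 9.99e-05 to 0.744. The lowest value of P4HA1 is also that of the straight line.

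At 4-fold in place of 2-fold, 2 genes remained past the limit from day 2 to day 3 in place of 12. Against the CD34- CD41- fraction, 4-fold left 0 genes in CD34lo CD41-, 2 in CD34hi CD41- and 3 in CD34lo CD41lo, and 1.5-fold gave 6 in CD34lo CD41-. Against unsorted cells, 4-fold left 0 genes in CD34- CD41-, 0 in CD34lo CD41-, 4 in CD34hi CD41- and 4 in CD34lo CD41lo, and 1.5-fold gave 13 in CD34- CD41- and 14 in CD34hi CD41-. With unsorted day 6 in place of day 7, an alternative chosen after seeing the data, 1 gene passed 2-fold in CD34- CD41- and 5 in CD34lo CD41-. Dim genes such as EGLN1, EGLN3, ANKRD37 and PDK1 are limited by the detection floor, and SLC2A3, ENO1 and GAPDH lie near the top of the scale.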

Other observations

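DDIT4, a stress-induced inhibitor of mTOR signalling and a known hypoxia target, also stood higher from day 3, and it is named here after its values were seen. Its levels were 7.59, 6.52 and 6.23 on days 0 to 2 and lay between 10.71 and 11.11 on days 3 to 8. Days 3 to 8 lay far above days 0 to 2 with no overlap, yet the smooth curve gave a change of 3.56 ± 1.26 with an adjusted p of 0.0674. VEGFA, also named after its values were seen, was at 9.09, 7.96, 5.54 and 6.70 in the negative, CD34lo, CD34hi and CD41lo fractions of day 7, lowest in the CD34hi fraction, whereas ADM, NDRG1 and P4HA2 were lowest in the CD41lo fraction.

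HK1 was read by 4 probes. A second probe, detected on 12 arrays, correlated with the kept one at 0.921 over the 9 days and was also lowest in the negative fraction among the fractions. Its measured difference from day 0 to day 8 was -1.54, with an undetected value on day 8, against -0.91 on the kept probe. Another was detected on 2 arrays only, the CD34lo and CD41lo fractions, at 6.91 and 7.88, and the last was detected on none.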
